A study of Mus musculus with 30 samples.

Results

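The comparison set 5 arrays of a drug-sensitive mouse B-cell lymphoma line at 48 h of mafosfamide against 5 arrays of the same line at 24 h. It held 10 of the 30 arrays of the series. The 48 h arrays were those titled as that time in the parental line, the 24 h arrays likewise, and each 48 h array was paired with the 24 h array that carries the same biological replicate number, called its culture here. No array of 0 h entered the test. All 10 arrays came from Eµ-Myc; Cdkn2a-/- B cells on the C57BL/6J background, a model of Burkitt's lymphoma in which Myc is driven by an immunoglobulin heavy chain enhancer and the Cdkn2a locus is deleted. The cells were grown in flasks with irradiated Cdkn2a-/- mouse embryonic fibroblasts as feeders, and 750 nM mafosfamide, a form of cyclophosphamide that is active in culture, was added at 0 h. The labels name no wash-out and no second dose, so the later time is 48 h after a single addition, and a recovery is not part of the labels. One lymphoma line gave all cultures, so the p-values of the paired test measure how the difference between the times varied across cultures of that line. The remaining 20 arrays were 13 parental arrays of 0, 6 and 12 h and 7 arrays of resistant sublines.

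Mafosfamide adds alkyl groups to DNA and crosslinks its strands. Crosslinks stall replication forks, and the checkpoint kinases that respond to them stabilise the transcription factor p53, whose targets include cell cycle inhibitors, death genes and Mdm2, the ligase that returns p53 to a low level. Alkylating drugs also consume glutathione, and the transcription factor NRF2, freed from its inhibitor Keap1 by oxidants and electrophiles, switches on genes for glutathione supply and detoxification. Both responses are known to be transient where the stress ends. B-lineage cells carry the signalling chains Cd79a and Cd79b of the B-cell receptor, and early B cells make the surrogate light chain in place of a rearranged one.

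Values are log2 expression of 1 probe set per gene, and a difference is 48 h minus 24 h within a culture, so that 1 unit is a 2-fold change. Of 19937 genes, 613 were lower at 48 h and 76 were higher at 48 h (limma with culture as a block, Benjamini-Hochberg adjusted p under 0.05). These are 3.07% and 0.381% of the genes tested, and 3.46% together. The called falls ran from -0.21 to -1.40, with a median of -0.41, and the called rises from 0.21 to 0.72, with a median of 0.29. No gene rose by 2-fold and 10 fell by it, namely Dglucy, Zmat3, Lox, Cd80, Nqo1, Plpp1, Igll1, F3, Thbs1 and Ephx1. The median over all genes was 0.02. All 5 cultures moved the same way for 603 of the 613 genes that fell and for 76 of the 76 that rose, where 9.93% of all genes were lower in every culture and 8.65% higher. The calls came from these same pairs, so this agreement is largely built in and is not separate evidence. The 48 h arrays lay wholly below the 24 h arrays for 111 genes that fell, against 0.928% of all genes, and wholly above for 26 that rose, against 0.868% of all genes.

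The calls rested on the pairing and on a few cultures. With no block 14 genes were called, 13 lower (0.0652% of all genes) and 1 higher (0.00502%), and leaving out both arrays of culture 4 left 51 calls, of culture 5 130 and of culture 3 184, against 547 without culture 1 and 642 without culture 2. Of the 80 called genes that the naming rule picked, 15 kept their call without each culture in turn, namely Zmat3, Dglucy, Cd80, Psrc1, Nqo1, Gsta4, Igll1, Bst1, Fetub, Ier5, Abca1, Acta2, Fhl1, Lpp and Thbs1. B-cell identity was plain on all 10 arrays. Cd79a lay between 13.24 and 13.62 at 48 h and between 13.27 and 13.43 at 24 h, and Cd79b between 13.54 and 13.72 at 48 h and between 13.40 and 13.68 at 24 h. Across genes, any 2 of the 10 arrays correlated at 0.983 to 0.998.

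Among the gene lists, fibroblast markers had the largest share of called members. This list (collagens, contractile proteins, matrix proteins) had 19 of 37 measured members lower and 0 higher, against 3.07% and 0.381% of all genes, with a median of -0.44 against 0.02 over all genes. None of the 19 kept its call without the block. The mean of the list was 8.96, 9.16, 7.99, 8.47 and 8.37 in cultures 1 to 5 at 48 h, against 9.80, 9.36, 8.30, 9.07 and 8.83 at 24 h. It was lower at 48 h in all 5 cultures, most in culture 1 and least in culture 2, while the ranges of the times overlapped. Acta2, smooth muscle actin, was at 12.02, 12.25, 10.02, 11.05 and 11.06 at 48 h, against 12.87, 12.85, 11.05, 12.21 and 12.22 at 24 h. It fell by 0.96 (SE 0.08, adjusted p = 0.00257 in limma). Thbs1, the matrix protein thrombospondin 1, was at 11.41, 11.45, 9.01, 10.37 and 10.32 at 48 h, against 12.56, 11.93, 10.22, 11.67 and 11.31 at 24 h, a fall of 1.03 (limma adjusted p = 0.00424). Both genes fell in every culture, and both had overlapping ranges, with culture 3 lowest at each time. Lox, which crosslinks collagen, had the largest fall of the list, at 8.76, 8.75, 6.95, 7.66 and 7.35 at 48 h, against 10.76, 9.62, 7.56, 9.22 and 8.70 at 24 h (difference -1.28, limma adjusted p = 0.0112). Fn1 (fibronectin, difference -0.66), Sparc (-0.67), Timp1 (-0.71), Ccn1 (-0.73), Ccn2 (-0.72) and Tagln (transgelin, -0.84) also fell. Col3a1 (0.04, adjusted p = 0.786) and Vim (-0.03, adjusted p = 0.735), which B cells also express, did not pass.

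The lymphoma cells were grown with fibroblasts in the flask, and the fibroblast signal of the arrays is given here beside the falls, whose cause was not tested. Fewer cells of a type and less RNA per cell cannot be told apart in such bulk samples. Across time the mean of the fibroblast list was 8.25 ± 0.20 at 0 h, 8.10 ± 0.15 at 6 h, 8.35 ± 0.22 at 12 h, 9.07 ± 0.56 at 24 h and 8.59 ± 0.47 at 48 h (SD, n = 5, 4, 4, 5 and 5). The 24 h arrays thus carried the most fibroblast signal, and carried unequal amounts. To see which falling genes follow this signal on arrays the comparison did not use, each gene was correlated with the fibroblast mean over the 13 parental arrays of 0, 6 and 12 h, with the mean of each time removed. Of the 594 genes that fell and are not on the list, 160 (26.9%) had r above 0.7, against 1.76% of all 19900 genes outside the list and 0 of the 76 genes that rose. Among the 216 falls of 0.5 or more outside the list, 124 (57.4%) had r above 0.7. These arrays come from cultures with the same numbers, culture 1 being present at 0 h alone, and the values are a description. Tissue factor F3, at 7.99, 7.98, 6.84, 7.28 and 7.03 at 48 h and 9.63, 8.82, 7.42, 8.54 and 7.84 at 24 h, is an example with r = 0.84. Fhl1, a LIM-domain protein of muscle, had r = 0.71, and Cd63, a tetraspanin of lysosomes and exosomes, r = 0.73. On the fibroblast list itself, with each member against the others, 13 of 37 (35.1%) had r above 0.7, with a median of 0.56. A fibroblast gene can thus lie below this cut.

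**Figure D1:**
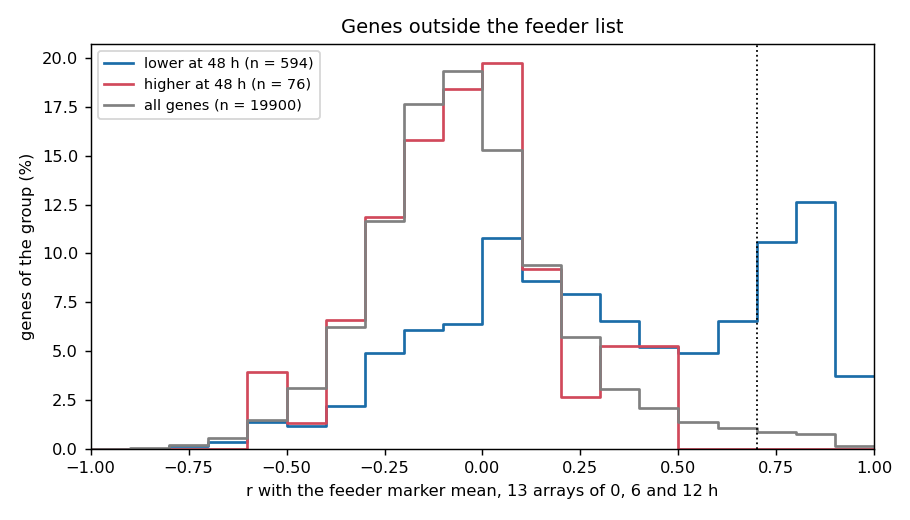
Share of genes (vertical axis, % of each group) by Pearson correlation with the fibroblast marker mean over 13 parental arrays of 0, 6 and 12 h (horizontal axis), for genes lower at 48 h, genes higher at 48 h and all genes, each outside the fibroblast list. The dotted line is r = 0.7; 26.9% of the genes lower at 48 h lie to its right, against 0 of 76 higher genes and 1.76% of all genes.

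**Figure D2:**
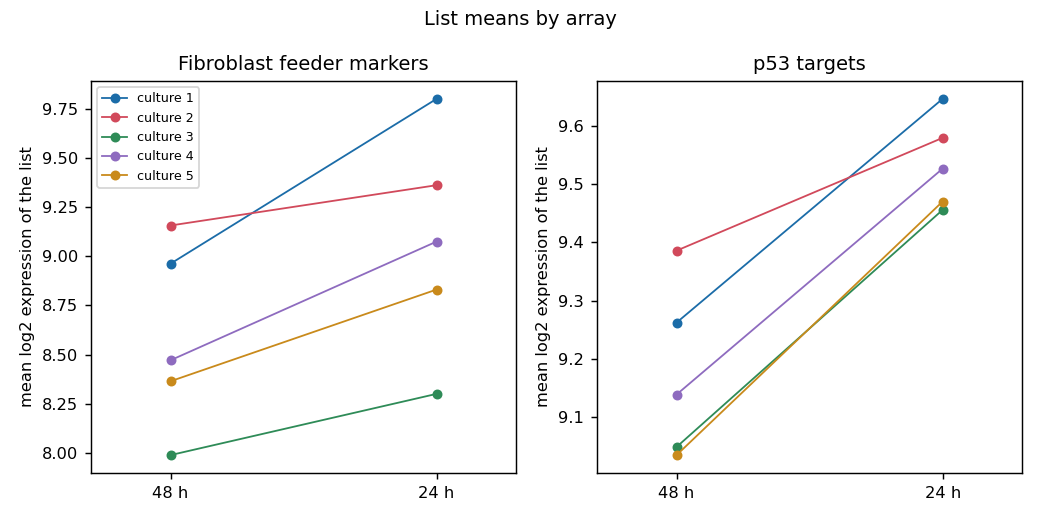
Mean log2 expression of the fibroblast list (left) and of the p53 target list (right) on each array at 48 h and 24 h, with a line for each culture. Both means were lower at 48 h in all 5 cultures, and for the p53 list the highest 48 h array, at 9.39, lay below the lowest 24 h array, at 9.46. Some members of the p53 list entered it from earlier results of these arrays, so this separation is not independent evidence.

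Putting the fibroblast mean of each array into the model as a covariate, a setting added after the data were seen for the version without the block, gave these counts. With covariate and block, which leaves 3 residual degrees of freedom, limma called 0 genes, while 1205 had an unadjusted p under 0.05. With covariate and no block it called 83 genes lower (0.416% of all genes) and 9 higher (0.0451%), of which 71 lower and 5 higher genes were also called in the paired comparison. Of the 80 named calls, 0 held with covariate and block, where 3 changed sign, and 12 held with covariate and no block. The named genes below are given with their call in that last fit where it held. A call given there was thus not kept in the fit with covariate and block. That fit drops the pairing, so its covariate also takes up differences between cultures. Its differences can be larger or smaller than the paired ones, as for S1pr1 (1.18 against 0.72) and Cox6a2 (0.47 against 0.63).

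The list with the next largest share was that of p53 targets. Of 39 measured members 19 were lower and 0 higher, where 3.07% of all genes were lower, with a median of -0.27. Cdkn1a, the gene of the cell cycle inhibitor p21, was not on the list, so the count does not cover it. In every culture 23 members were lower, as were 9.93% of all genes. Some members, Dglucy, Cd80 and Ddias among them, entered the list from earlier results of these arrays, so the count is not independent evidence of the direction. Without the block Dglucy, Zmat3, Psrc1 and Cd80 kept their call, and with the fibroblast covariate and no block 6 did. Zmat3, a zinc finger RNA-binding protein and a direct p53 target, was at 8.23, 8.49, 8.21, 8.13 and 7.95 at 48 h, against 9.21, 9.62, 9.57, 9.59 and 9.44 at 24 h. Every 48 h array lay below every 24 h array, by 1.28 on average (SE 0.08, limma adjusted p = 0.00084), or 2.44-fold. With the fibroblast covariate and no block the difference was also -1.28 (limma adjusted p = 0.00264). Dglucy, which encodes D-glutamate cyclase, was at 7.26, 7.85, 7.27, 7.43 and 7.25 at 48 h, against 8.96, 8.78, 9.01, 8.66 and 8.62 at 24 h. It had the largest fall of all genes, 1.40 (SE 0.11, limma adjusted p = 0.0016), with culture 2 the highest at 48 h, and the covariate fit gave -1.33 (limma adjusted p = 0.00287). Cd80, a B7 ligand that costimulates T cells, was at 8.44, 8.96, 8.22, 8.45 and 7.91 at 48 h, against 9.72, 9.77, 9.67, 9.66 and 9.28 at 24 h. It fell by 1.22 (SE 0.09, limma adjusted p = 0.00116) with no overlap. Its covariate difference was -1.06 (limma adjusted p = 0.0188), although it followed the fibroblast mean at r = 0.65 on the other arrays.

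Psrc1, a microtubule-binding protein that p53 regulates, was at 9.49, 9.54, 9.45, 9.43 and 9.26 at 48 h, against 10.51, 10.33, 10.51, 10.19 and 10.21 at 24 h. The fall was 0.91 (SE 0.06, limma adjusted p = 0.00084), again with separate ranges, and the covariate fit gave -0.88 (limma adjusted p = 0.00302). Trp53inp1, a p53-induced nuclear protein that promotes death and autophagy, was at 10.91, 10.89, 10.26, 10.66 and 10.54 at 48 h, against 11.41, 11.48, 11.18, 11.66 and 11.45 at 24 h (difference -0.78, limma adjusted p = 0.00412). Ei24, a membrane protein of the endoplasmic reticulum, was at 10.95, 11.12, 11.06, 11.03 and 11.00 at 48 h, against 11.23, 11.36, 11.40, 11.48 and 11.41 at 24 h (difference -0.34, limma adjusted p = 0.0134). Both had separate ranges, and both kept their call in the covariate fit without block, at limma adjusted p = 0.0292 for Trp53inp1 and 0.0394 for Ei24. Ccng1, cyclin G1, was at 12.79, 13.12, 12.53, 12.64 and 12.58 at 48 h, against 13.27, 13.38, 13.23, 13.29 and 13.23 at 24 h, and also fell without overlap (difference -0.55, limma adjusted p = 0.00888), but its adjusted p was 0.0577 in the limma fit with the covariate and no block.

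Mdm2, which binds p53 and marks it for degradation, was at 10.61, 11.33, 10.25, 10.49 and 10.22 at 48 h, against 10.98, 11.32, 10.68, 10.95 and 10.73 at 24 h. Its fall of 0.35 (limma adjusted p = 0.0461) was seen in 4 cultures and not in culture 2, and the covariate fit without block gave -0.10 (limma adjusted p = 0.833). Other called members were Gadd45a (a growth arrest protein, -0.36), Polk (the translesion polymerase kappa, -0.33), Aen (an apoptosis-enhancing nuclease, -0.28), Ddias (-0.45), the kinases Plk2 (-0.53) and Plk3 (-0.25), and Bcl2l1 (the survival protein BCL-XL, -0.27). Phlda3 (an inhibitor of Akt, -0.95), Perp (a membrane effector of p53, -0.67) and Tnfrsf10b (a TRAIL receptor, -0.53) also fell, and these are the 3 called members whose correlation with the fibroblast mean on the other arrays passed 0.7, at 0.78, 0.83 and 0.74. The p53-induced death genes Bbc3 (-0.28, adjusted p = 0.103) and Pmaip1 (-0.27, adjusted p = 0.081) did not pass in limma, nor did Btg2 (-0.19), Sesn1 (0.04), Ddb2 (0.17) or Ppm1d (0.16), the phosphatase that acts back on p53.

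**Figure D3:**
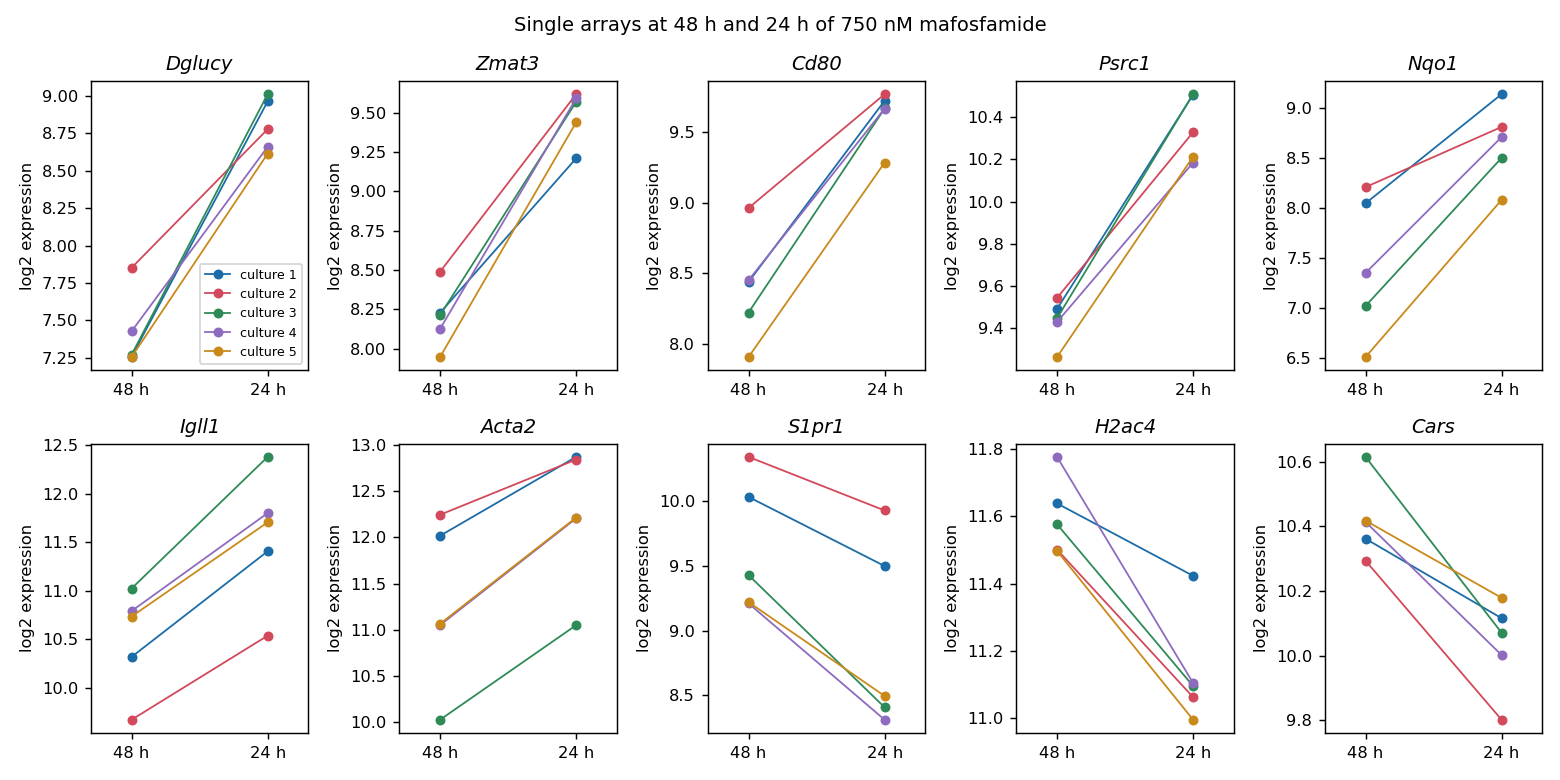
Log2 expression of 10 genes on each array at 48 h (left of each panel) and 24 h (right), with a line for each culture; vertical scales differ between panels. Dglucy, Zmat3, Cd80 and Psrc1 were lower on every 48 h array than on any 24 h array, H2ac4 and Cars were higher on every 48 h array, and Nqo1, Igll1, Acta2 and S1pr1 moved one way within every culture while the ranges overlapped.

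At 48 h the mean of each of Zmat3, Cd80 and Psrc1 stood between its 24 h level and that of untreated cells. Zmat3 averaged 7.50 at 0 h, 8.02 at 6 h, 9.31 at 12 h, 9.49 at 24 h and 8.20 at 48 h. Cd80 averaged 7.13, 7.91, 9.88, 9.62 and 8.40 at those times, and Psrc1 8.94, 9.50, 10.74, 10.35 and 9.44. Cd80 and Psrc1 had their highest mean at 12 h and Zmat3 at 24 h. On the arrays of 12 h and 0 h the 19 called p53 targets were all higher at 12 h by their means, with a median of 0.85. Since some of them entered the list from earlier results of these arrays, this is no independent evidence. Among all 613 genes that fell, 533 (86.9%) had a higher mean at 12 h than at 0 h, against 42.8% of all genes, and among the 76 that rose 24 (31.6%) did. In the 134 falling genes with r at or below 0 against the fibroblast mean, 126 (94.0%) did, with a median of 0.29. Culture 1 has no array at 6 h or 12 h, so the means at those times hold cultures 2 to 5 and are not paired with the 0 h means. The cultures carry numbers of those tested, so these shares are descriptive.

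**Figure D4:**
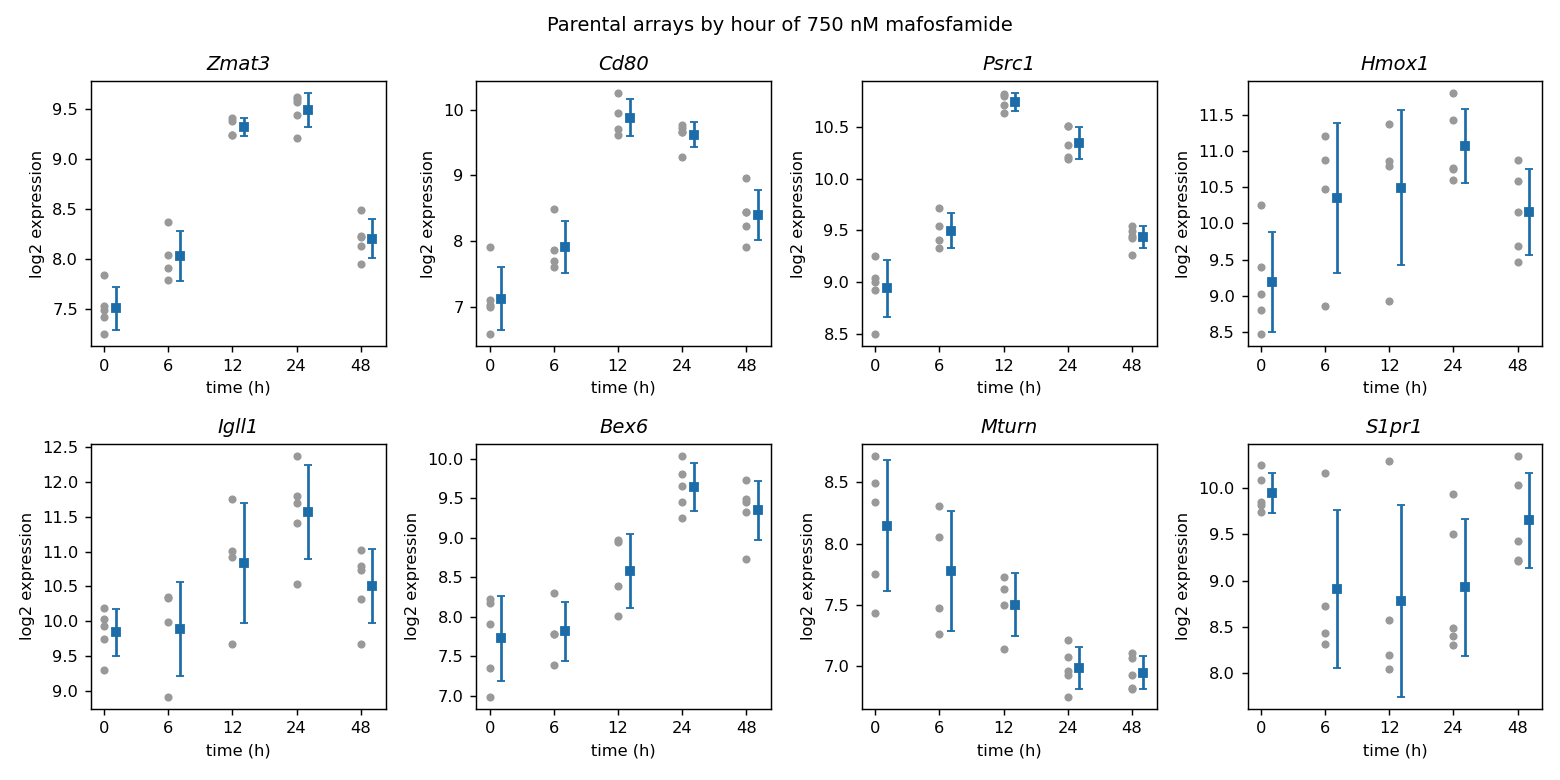
Log2 expression of 8 genes on the parental arrays by hour after 750 nM mafosfamide (equal spacing on the horizontal axis); grey points are arrays and blue squares with bars are the mean ± SD (n = 5, 4, 4, 5 and 5). Zmat3, Cd80 and Psrc1 at 48 h lay below 24 h, Bex6 and Mturn showed no called difference between 48 h and 24 h, and S1pr1 was higher at 48 h within every culture.

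Genes that NRF2 controls fell as a smaller group. Of 33 measured members 9 were lower and 0 higher (3.07% of all genes lower), with a median of -0.13, and 14 were lower in every culture (9.93% of all genes). Without the block none of the 9 kept its call. The 9 were Nqo1, Hmox1, Gclm, Slc7a11, Srxn1, Txnrd1, Gsr, Gsta4 and Abcc1. None of the 9 passed r = 0.7 with the fibroblast mean on the other arrays, with a median r of -0.17. On the fibroblast list itself only 13 of 37 members passed that cut. With the fibroblast covariate the median of the 33 NRF2 members was -0.04 with the block, where 0 were called, and -0.10 without the block. The part of the fibroblasts in the falls of the 9 was not tested. NRF2 acts through the antioxidant response element, searched here by its core letters TGACNNNGC on both strands of RefSeq promoter windows (GRCm38.p6, 250 bases before to 50 after the start of transcription). Of the 9 genes 5 had a window, and 3 of these, Srxn1, Gclm and Txnrd1, held the core, where 14.0% of 27025 genes with a window did. By windows these were 3 of 7, and 12.4% of all 32851. Their windows are shown because they carry it, with the matched letters in capitals. Each match read on the opposite strand, and each gene lies on the plus strand. A match is a description of the letters and does not show binding.
Srxn1, chr2:152105274-152105573, plus strand: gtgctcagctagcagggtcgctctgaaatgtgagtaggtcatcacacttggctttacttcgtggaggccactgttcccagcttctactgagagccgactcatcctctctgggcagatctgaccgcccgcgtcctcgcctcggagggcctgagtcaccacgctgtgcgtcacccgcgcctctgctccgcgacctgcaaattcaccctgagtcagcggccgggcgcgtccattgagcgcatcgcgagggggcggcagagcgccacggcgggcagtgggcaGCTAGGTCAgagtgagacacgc
Gclm, chr3:122245307-122245606, plus strand: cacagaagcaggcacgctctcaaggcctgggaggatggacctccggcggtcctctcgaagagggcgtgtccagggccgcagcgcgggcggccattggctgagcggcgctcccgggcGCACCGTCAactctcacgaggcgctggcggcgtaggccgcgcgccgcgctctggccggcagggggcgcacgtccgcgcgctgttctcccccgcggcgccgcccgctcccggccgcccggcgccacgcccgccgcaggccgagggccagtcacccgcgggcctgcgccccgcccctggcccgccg
Txnrd1, chr10:82858956-82859255, plus strand: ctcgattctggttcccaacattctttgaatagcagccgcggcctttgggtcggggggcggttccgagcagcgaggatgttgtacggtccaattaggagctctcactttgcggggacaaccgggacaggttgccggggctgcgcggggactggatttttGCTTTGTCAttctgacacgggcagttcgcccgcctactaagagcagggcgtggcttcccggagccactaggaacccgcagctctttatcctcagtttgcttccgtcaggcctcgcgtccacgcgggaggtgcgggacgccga

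Of these 3 genes, Gclm, the modifier subunit of the enzyme that limits glutathione synthesis, was at 11.47, 11.55, 11.38, 11.30 and 11.33 at 48 h, against 11.75, 11.74, 11.66, 11.83 and 11.71 at 24 h. Txnrd1, thioredoxin reductase 1, was at 11.18, 10.93, 11.06, 11.00 and 10.94 at 48 h, against 11.28, 11.26, 11.40, 11.50 and 11.39 at 24 h. Both were lower on every 48 h array than on any 24 h array, by 0.33 for Gclm (limma adjusted p = 0.024) and by 0.34 for Txnrd1 (limma adjusted p = 0.028). Srxn1, sulfiredoxin, which restores oxidised peroxiredoxins, was at 8.54, 8.44, 7.36, 8.32 and 7.75 at 48 h, against 9.16, 8.54, 7.72, 8.95 and 8.09 at 24 h. Its ranges overlapped, cultures 1, 2 and 4 being high at both times, and the fall was 0.41 (limma adjusted p = 0.031).

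Nqo1, the quinone reductase, was at 8.04, 8.21, 7.02, 7.35 and 6.51 at 48 h, against 9.14, 8.81, 8.50, 8.71 and 8.08 at 24 h. It had the largest fall of the group, 1.22 (SE 0.13, limma adjusted p = 0.00412) or 2.33-fold, in all 5 cultures and with overlap. Hmox1, heme oxygenase 1, was at 10.88, 10.58, 9.47, 10.16 and 9.69 at 48 h, against 11.80, 10.77, 10.76, 11.43 and 10.61 at 24 h. It fell by 0.91 (SE 0.14, limma adjusted p = 0.0158), least in culture 2. Slc7a11, the transporter that brings in cystine for glutathione, was at 7.81, 8.04, 6.36, 7.40 and 7.03 at 48 h, against 8.22, 8.47, 7.46, 9.01 and 8.27 at 24 h (difference -0.96, limma adjusted p = 0.023). Abcc1, a pump that exports glutathione conjugates, was at 9.78, 9.88, 9.86, 9.88 and 9.73 at 48 h, against 10.11, 10.03, 10.36, 10.33 and 10.17 at 24 h. It fell by 0.38 (limma adjusted p = 0.0172) with no overlap and was the only one of the 9 called in the covariate fit without block (-0.43, limma adjusted p = 0.0394). Gsr (glutathione reductase, -0.33) and Gsta4 (a glutathione transferase, -0.61) also fell. Nfe2l2, which encodes NRF2 itself, had a difference of -0.20 (adjusted p = 0.0657), Keap1 of 0.02 (adjusted p = 0.83) and Gclc, the catalytic partner of Gclm, of -0.20 (adjusted p = 0.0843), none of which passed in limma. Of 31 glutathione genes 5 fell (3.07% of all genes), 4 of them shared with the NRF2 list and the other Gpx8 (-0.86), whose r with the fibroblast mean was 0.88. Of 18 drug efflux transporters 3 fell, beside the same share of all genes, Abcc1, Abcb1b (-0.39) and Abca1 (-0.54).

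The core of a paired p53 site, in which the letters CATG stand at each end of 6 free bases, was searched in the same way. It was in none of the windows of the 15 called p53 targets that had one, and in 0.712% of all windows (0.833% of genes with a window), which says only that these letters are not in that stretch.

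Genes of early B cells fell in 4 of 21 cases and rose in 0, beside 3.07% and 0.381% of all genes, with a median of -0.11. None of the 4 kept its call without the block, and Igll1 alone was called with the fibroblast covariate and no block. The median of the list was -0.04 with covariate and block, where 0 were called, and -0.18 with covariate and no block. Igll1, the lambda5 chain of the surrogate light chain, was at 10.32, 9.67, 11.02, 10.79 and 10.73 at 48 h, against 11.41, 10.54, 12.38, 11.80 and 11.70 at 24 h. Culture 2 was lowest and culture 3 highest at each time, and the fall of 1.06 was seen in all 5 (SE 0.07, limma adjusted p = 0.00084). With the covariate and no block, a fit that drops the pairing, its difference was -1.51 (limma adjusted p = 0.0188). With neither covariate nor block the limma adjusted p was 0.437, and its r with the fibroblast mean was -0.26. Vpreb1, the partner chain of Igll1, was at 7.36, 7.08, 7.82, 7.81 and 7.71 at 48 h, against 8.15, 7.46, 8.68, 8.25 and 8.02 at 24 h (difference -0.55, limma adjusted p = 0.0165). Rag1, the recombinase of antigen receptor genes, was at 8.11, 7.81, 9.13, 9.37 and 9.20 at 48 h, against 8.79, 7.99, 9.64, 10.08 and 9.83 at 24 h (difference -0.54, limma adjusted p = 0.0127), and was low in cultures 1 and 2 at both times. Bst1, a surface enzyme of bone marrow stroma and early B cells, was at 10.20, 9.53, 9.86, 9.34 and 9.29 at 48 h, against 10.69, 10.12, 10.49, 9.98 and 9.91 at 24 h (difference -0.60, limma adjusted p = 0.00148). These 4 genes were lower in every culture. Vpreb2 (-0.27, adjusted p = 0.0586), a near copy of Vpreb1 with which it may share hybridisation, Rag2 (-0.15), Il7r (-0.04) and Dntt (-0.03) did not pass.

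The 76 genes higher at 48 h included 2 homing receptors of B cells, single histone and mitochondrial genes and a few enzymes of amino acid and sterol supply. S1pr1, the sphingosine phosphate receptor that lets lymphocytes leave tissue, was at 10.04, 10.35, 9.43, 9.21 and 9.22 at 48 h, against 9.50, 9.93, 8.41, 8.31 and 8.49 at 24 h. It had the largest of the called rises, 0.72 (SE 0.09, limma adjusted p = 0.00811), in all 5 cultures, and cultures 1 and 2 were high at both times. Ccr7, the chemokine receptor for lymph node homing, was at 11.32, 11.30, 11.17, 11.21 and 11.16 at 48 h, against 11.08, 10.99, 11.01, 10.92 and 10.87 at 24 h (difference 0.26, limma adjusted p = 0.026), with separate ranges. These were the 2 called of 27 mature B genes, with 0.381% of all genes called higher, and the median of the list was 0.01. Ms4a1, which encodes CD20, was at 11.70, 11.99, 10.04, 9.65 and 9.82 at 48 h, against 11.33, 12.05, 8.89, 8.22 and 8.71 at 24 h, a mean difference of 0.80 with culture 2 the other way (limma adjusted p = 0.0639). Itgb7, an integrin chain for homing to gut, was at 8.65, 8.38, 8.15, 7.98 and 7.97 at 48 h, against 8.13, 8.21, 7.71, 7.58 and 7.39 at 24 h (difference 0.42, limma adjusted p = 0.0156). Serpinb1a, an inhibitor of neutrophil proteases, was at 7.80, 7.85, 7.83, 7.54 and 6.97 at 48 h, against 7.33, 7.25, 6.90, 6.40 and 6.70 at 24 h, and rose by 0.68 (limma adjusted p = 0.0213).

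Cox6a2, a cytochrome c oxidase subunit of heart and muscle, was at 8.35, 8.36, 9.28, 8.93 and 9.07 at 48 h, against 8.27, 8.06, 8.16, 8.25 and 8.12 at 24 h. It rose by 0.63 (limma adjusted p = 0.0486), most in cultures 3 and 5 and least in culture 1. H2ac4, a histone H2A gene whose near-identical copies can share probes, was at 11.64, 11.50, 11.58, 11.78 and 11.50 at 48 h, against 11.42, 11.06, 11.10, 11.11 and 11.00 at 24 h. It rose without overlap (difference 0.46, limma adjusted p = 0.0125; 0.51 and 0.0394 with the covariate and no block), and it was the only one called of 22 histone genes, beside 0.381% of all genes higher. Of the 22 histone genes 17 had a difference above 0 and 5 below, with a median of 0.10, where 56.8% of all genes were above 0. Cuta was at 12.39, 12.34, 12.23, 12.30 and 12.10 at 48 h, against 12.14, 11.99, 11.74, 11.59 and 11.75 at 24 h (difference 0.43, limma adjusted p = 0.0173; 0.0292 with the covariate and no block). Other leading rises were Pirb (an inhibitory immunoglobulin-like receptor, 0.49), Rassf6 (0.49), Fbxo36 (0.45), Tbc1d7 (a subunit of the tuberous sclerosis complex, 0.45), Try10 (of the trypsin family, whose copies are much alike, 0.44) and Sp140 (a nuclear body protein of lymphoid cells, 0.42). Ptpn22, a phosphatase that restrains antigen receptor signalling, rose by 0.24 (limma adjusted p = 0.0282). Of 29 genes of B-cell receptor signalling it was the 1 that rose (0.381% of all genes), and 2 fell, Pik3ap1 and Fyn (3.07% of all genes).

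Of 18 aminoacyl-tRNA synthetases 2 rose (0.381% of all genes) and 0 fell, 12 had a difference above 0, and the median was 0.08. Cars, which charges cysteine tRNA, lay between 10.29 and 10.62 at 48 h and between 9.80 and 10.18 at 24 h, so with separate ranges (difference 0.39, limma adjusted p = 0.0161), and Mars1, for methionine, rose by 0.23 (limma adjusted p = 0.0376). Asns, asparagine synthetase, was at 12.88, 12.72, 13.06, 12.88 and 13.06 at 48 h, against 12.73, 12.55, 12.48, 12.53 and 12.69 at 24 h, higher in every culture (difference 0.32, limma adjusted p = 0.0421). Chac1, which degrades glutathione and is a marker of the ATF4 response, was at 8.40, 8.37, 9.64, 9.06 and 9.27 at 48 h, against 8.36, 8.15, 8.28, 8.23 and 8.30 at 24 h. Its ranges were separate and its difference of 0.68 did not pass (limma adjusted p = 0.0707), being near 0 in culture 1 and over 1 in culture 3. Of the 43 genes of ATF4 and the unfolded protein response 2 rose, Asns and Pck2 (0.23), and 3 fell, Slc7a11, Ero1b (-0.31) and Hspa5, the chaperone BiP, at 12.69, 12.64, 12.70, 12.69 and 12.67 at 48 h, against 12.79, 12.94, 13.01, 12.93 and 12.96 at 24 h (difference -0.25, limma adjusted p = 0.038). Of 26 sterol genes 24 had a difference above 0, with a median of 0.12, where 56.8% of all genes were above 0. Dhcr7 (0.32, limma adjusted p = 0.014) and Hmgcs1 (0.25, limma adjusted p = 0.029), enzymes of cholesterol synthesis, rose, and Abca1, which exports cholesterol, was at 7.41, 8.16, 7.01, 7.46 and 7.45 at 48 h, against 7.98, 8.46, 7.48, 8.20 and 8.06 at 24 h, and fell (difference -0.54, limma adjusted p = 0.0082).

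**Figure D5:**
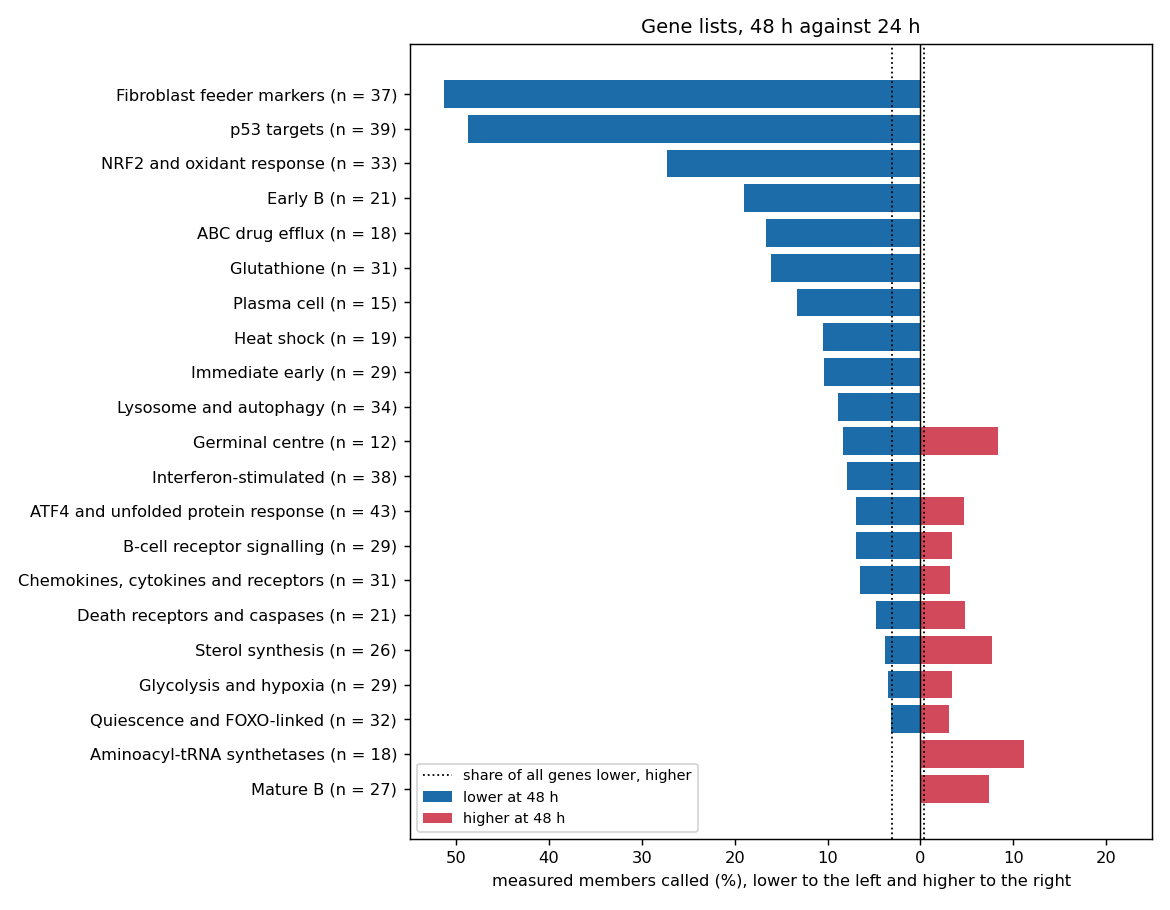
Percentage of the measured members of each gene list that were called lower (blue, to the left) or higher (red, to the right) at 48 h than at 24 h, for lists with 2 or more called members; n is the number measured and the dotted lines are the shares over all genes, 3.07% lower and 0.381% higher. Fibroblast markers (19 of 37) and p53 targets (19 of 39) have the largest shares.

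Proliferation genes gave few calls, as did genes at large, of which 3.07% were lower and 0.381% higher. Of 41 genes of G1/S and DNA replication 1 rose, Ccne1, which encodes cyclin E1 (0.24, limma adjusted p = 0.0371), and limma called 0 of 43 genes of G2/M and mitosis, 3 of which had an unadjusted p under 0.05 (median 0.05). Mki67, the proliferation antigen, differed by 0.00 (adjusted p = 0.971) and Ccna2 by 0.05 (adjusted p = 0.59) in limma. Myc, the oncogene of the model, was at 13.07, 13.16, 12.97, 13.09 and 12.99 at 48 h, against 13.03, 13.08, 13.11, 13.07 and 13.07 at 24 h (difference -0.02, SE 0.05, limma adjusted p = 0.885). Mxd4, a Max partner that opposes Myc, was at 9.75, 9.21, 9.16, 9.34 and 9.47 at 48 h, against 10.06, 9.60, 9.68, 10.10 and 10.03 at 24 h, and fell by 0.51 (limma adjusted p = 0.0107). It was the only called gene of 13 in the Myc network, beside 3.07% of all genes lower. Ezh2 (0.00) and Suz12 (-0.04), subunits of the polycomb repressive complex PRC2, Tcf3 (0.03), the gene of E2a, and Spi1 (0.05) did not pass. Tcf3 and Spi1 are among 27 B-lineage transcription factors, of which 1 fell, Bach2, and 0 rose. Of the 27, 19 had a difference below 0 and 8 above, with a median of -0.10.

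The remaining lists had scattered calls, to be read against 3.07% of all genes lower and 0.381% higher. Of 29 immediate early genes 3 fell: Ier5 was at 9.18, 8.99, 8.82, 8.87 and 8.61 at 48 h, against 9.62, 9.56, 9.25, 9.47 and 9.21 at 24 h (difference -0.53, limma adjusted p = 0.00383), with separate ranges, while Jun (-0.63, limma adjusted p = 0.0147) and Fosl1 (-0.63, limma adjusted p = 0.0377), both subunits of AP-1, had r of 0.58 and 0.74 with the fibroblast mean. Of 38 interferon-stimulated genes 3 fell, the antiviral genes Mx2 (-0.40), Bst2 (-0.27) and Eif2ak2 (-0.29). Mx2 is dim, with a mean under 6, the low-value limit of an alternative fit that left it out. Mx2 was at 5.28, 5.52, 5.42, 5.46 and 5.37 at 48 h, against 5.67, 5.70, 6.04, 5.83 and 5.81 at 24 h, with separate ranges (limma adjusted p = 0.0173; 0.0292 with the covariate and no block). Of 34 lysosome and autophagy genes 3 fell, among them Grn, progranulin, at 11.94, 11.98, 11.90, 11.98 and 11.88 at 48 h, against 12.28, 12.23, 12.29, 12.23 and 12.15 at 24 h (difference -0.30, limma adjusted p = 0.0165), again separate. Fadd, the adaptor of death receptors, was at 9.23, 9.19, 9.36, 9.36 and 9.20 at 48 h, against 8.97, 8.76, 8.93, 9.07 and 9.03 at 24 h, and rose (difference 0.32, limma adjusted p = 0.0228) without overlap. Fetub, fetuin B, was at 9.16, 8.44, 8.70, 8.72 and 8.51 at 48 h, against 9.76, 9.16, 9.25, 9.34 and 9.09 at 24 h, and fell by 0.61 (limma adjusted p = 0.00133). Bex6 was at 9.33, 9.49, 9.73, 9.46 and 8.73 at 48 h, against 9.81, 9.45, 10.04, 9.65 and 9.25 at 24 h, and did not pass (difference -0.29, limma adjusted p = 0.0901). Mturn was at 6.82, 7.06, 6.92, 7.11 and 6.81 at 48 h, against 6.75, 6.93, 6.96, 7.07 and 7.21 at 24 h (difference -0.04, limma adjusted p = 0.819).

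In 4 marker lists of other blood and vessel cells, limma called 0 of 22 T and NK genes, 0 of 22 myeloid genes and 0 of 8 erythroid genes. Of these, 2, 3 and 1 had an unadjusted p under 0.05. In the endothelial list limma called 1 of 12 genes, Cdh5 (-0.40, limma adjusted p = 0.0191). Over all genes 3.46% were called, a share at which lists this short hold few calls.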

How the data were processed

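RNA of the Eµ-Myc; Cdkn2a-/- line was hybridised to Affymetrix Mouse Gene ST arrays, 1 array per sample. The authors summarised the arrays by robust multi-array averaging with the affy package and deposited log2 expression values. Which arrays were normalised together was not given in the sources used here. A batch label or scan date was not given in the sources used here. From these log2 values 1 probe set per gene was taken, that of the highest mean over the 30 arrays, among 21640 of 34760 probe sets with 1 symbol. Symbols came from the platform annotation, and 21553 of these probe sets had an Entrez identifier in RefSeq. Older names in the gene lists were matched through RefSeq synonyms. Taking 1 probe set per gene gave 19937 genes. A further 13120 probe sets with no or several symbols were tested apart and none was called by limma, with 1061 at an unadjusted p under 0.05.

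Time was tested in R 4.3.3 with limma 3.58.1 on the 10 arrays, with culture number as a fixed block (4 residual degrees of freedom), empirical Bayes variances and Benjamini-Hochberg adjustment over all genes. RMA shrinks differences of dim probe sets, and the number of arrays limits the precision. Title and description give the same number at both times, and the deviations of same-numbered arrays from their time means correlated at 0.60, 0.71, 0.75, 0.39 and 0.40 in cultures 1 to 5. The 24 h array correlated best with the 48 h array of its own number in cultures 1 to 4 and not in culture 5. Genes were named by a rule: the 12 largest rises and 12 largest falls with all 5 pairs alike, predicted genes passed over, then up to 4 members of smallest p in each of 46 lists, and 23 fixed names. Further list members are named where a list's counts are described. The members and lists were chosen with earlier results of these data known, and list counts are to be read against the shares over all genes. The pipeline was tested on simulated data. Alternatives changed the block, the arrays in the fit, the weights, the variance trend, the centring, the filter on low values, the probe set rule, the fibroblast covariate and the cultures included.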

Additional observations from a re-analysis of the deposited data

Results flagged for a closer look

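In 6 of 184 groups of 5 arrays (92 genes at 48 h and 24 h), 1 array stood apart from the other 4 by more than Dixon's limit of 0.71 of the range, where chance alone sets apart about 5% of groups. At 48 h, Dglucy was at 7.851 in culture 2, with the nearest other array at 7.426. At 24 h, Cd80 was at 9.283 in culture 5 (nearest 9.665), H2ac4 at 11.423 in culture 1 (nearest 11.105), Fbxo36 at 8.986 in culture 2 (nearest 9.239), Dhcr7 at 9.621 in culture 3 (nearest 9.407) and Suz12 at 12.027 in culture 1 (nearest 12.33).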

How the results depend on the processing

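The paired comparison called 689 genes, 76 higher and 613 lower at 48 h, 10 of them lower by 2-fold. Without the replicate block the counts were 14, 1, 13 and 3. With the block as a random effect 263 were called, 202 lower and 5 by 2-fold, and with all parental arrays 208, 33 higher and 175 lower. A variance trend gave 1228 (254 higher, 974 lower), array weights 180 higher and leaving out low values 133 higher. The fibroblast covariate with the block gave 0 in every count (1205 at an unadjusted p under 0.05 in limma), and without the block 92, 9 higher and 83 lower. Without cultures 1 and 2, which had the highest fibroblast means at 24 h, 37 were higher and 21 lower by 2-fold. Leaving out 1 pair at a time gave 51 to 642 calls, 1 to 86 higher, 50 to 605 lower and 5 to 30 lower by 2-fold. Without the block, leaving out 1 array gave 4 to 21 calls, 0 to 4 higher, 4 to 17 lower and 2 to 3 by 2-fold (for 24 h culture 2, 48 h culture 1 and 48 h culture 5, 8 calls with 8, 7 and 8 lower, and for 24 h culture 3, 7 calls). The causes were not tested. Of the 80 named calls, the covariate reversed Tnfrsf10b (0.0061), Fads2 (0.16) and Cd63 (0.0441) with the block, and Fads2 (0.25) and Cd63 (0.004) without it, and 12 held their call without it. No other alternative turned a named call round. Median centring, housekeeping centring and the mean of probe sets kept 76, 80 and 80 of the 80.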
